A study of Homo sapiens with 12 samples.

Results

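Crizotinib given for 24 h was set against control in A375, an established human melanoma cell line, with 2 arrays labelled crizotinib 24 h and 2 labelled control, 4 of the 12 arrays of the series. Both sets were chosen by sample title. Crizotinib is a kinase inhibitor developed against the receptor tyrosine kinases MET, ALK and ROS1. Per the labels' protocols it was given at the concentration that inhibited the cells by 75% in an earlier 72 h treatment. Control cells received the vehicle DMSO, and the control titles give no exposure time, so an 8 h and a 24 h vehicle cannot be told apart. The 3 arrays of crizotinib 8 h and the 2 of ciclopirox 24 h, an iron-chelating antifungal given by the same 75% rule, serve below to test whether a change differed from the earlier time and from the other drug. As background, A375 carries an activating mutation of the kinase BRAF, which all groups share, and the labels name no further allele.

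Each array took 300 ng of total RNA, amplified with biotin and read on Illumina beads, per the labels. Values are the authors' normalized intensities on a linear scale, and changes are log2 differences, crizotinib 24 h minus control, ± SE from limma, with n = 2 arrays a group. The titles number the replicates without saying that they were separate cultures, so the p-values reflect array-to-array spread alone, part of which could be technical. In bulk RNA, fewer cells of a kind and less RNA per cell cannot be told apart. The scanner columns named in the sample descriptions did not match the value table except in the 2 controls, and the 2 crizotinib 24 h arrays followed scanner columns described as ciclopirox 8 h. Every limma call in the report rests on the value table's own sample names: under the described names 0 genes passed in this comparison, with 1522 at an unadjusted p under 0.05, against 4307 under the value table's names. Groups lay in blocks on 1 chip, and chip position cannot be told apart from treatment.

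The line matched its label in part. SOX10, the neural crest factor of melanocytes and most melanomas, read 3819 and 3658 at crizotinib 24 h and 3506 and 3609 in control, a difference of 0.072 ± 0.087 with a limma adjusted p of 0.58. The pigment genes TYR, TYRP1, PMEL and MLANA were detected on fewer than 2 of the 12 arrays and were not tested. AXL, a receptor kinase of poorly pigmented melanomas, read 6054 and 6675 at crizotinib 24 h and 5519 and 6592 in control, with overlapping groups. Of the markers of other cell types on the value table, 0 of 4 keratinocyte, 1 of 5 leukocyte, 1 of 6 endothelial, 5 of 8 fibroblast and 2 of 4 neuron genes passed the detection filter. CD14, the leukocyte marker, was at least 1.30-fold higher, with 51.4 and 53.3 at crizotinib 24 h and 34.0 and 29.3 in control, below background. The fibroblast markers LUM and MFAP5 were called higher and COL6A3 lower, and the 5 tested summed to 341.1 and 297 at crizotinib 24 h and 217.5 and 237 in control. COL1A1, COL1A2 and COL3A1 did not pass the filter. Of the neuron markers, SYT1 was called higher and TUBB3 lower, and both together summed to 6490 and 6567 at crizotinib 24 h and 7915 and 8983 in control. COL6A3, SYT1 and TUBB3 each lost their calls in 6 alternative settings, among them the one without the detection filter. The part of the markers of other cell types in the results was not tested.

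Crizotinib for 24 h changed nearly as many genes upward as downward. Of 10330 genes tested, 3204 (31.0%) passed a limma adjusted p of 0.05, 1599 higher (15.5%) and 1605 lower (15.5%). At 2-fold or more, 264 genes rose and 182 fell. At 4-fold or more, 37 rose and 2 fell. The smallest called change was 0.23 and the median size of a called change was 0.58, against a median SE of 0.13 over all genes. In all 3204 called genes the 2 groups did not overlap, so separation of the arrays adds nothing to a call. Leaving out 1 array gave 2104 calls when it was control replicate 1 and 2033 when it was crizotinib 24 h replicate 1. Matched scanner signals scaled to each array's median moved the median of all genes by -0.18 and split the calls into 844 higher and 3019 lower. The same signals scaled on detected probes gave 1871 higher and 1731 lower, with a median of all genes of 0.022. Quantile normalized, they gave 1680 higher and 1777 lower. The balance of directions thus depended on the scaling, and directions below are relative to the value table's scale.

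**Figure D1:**
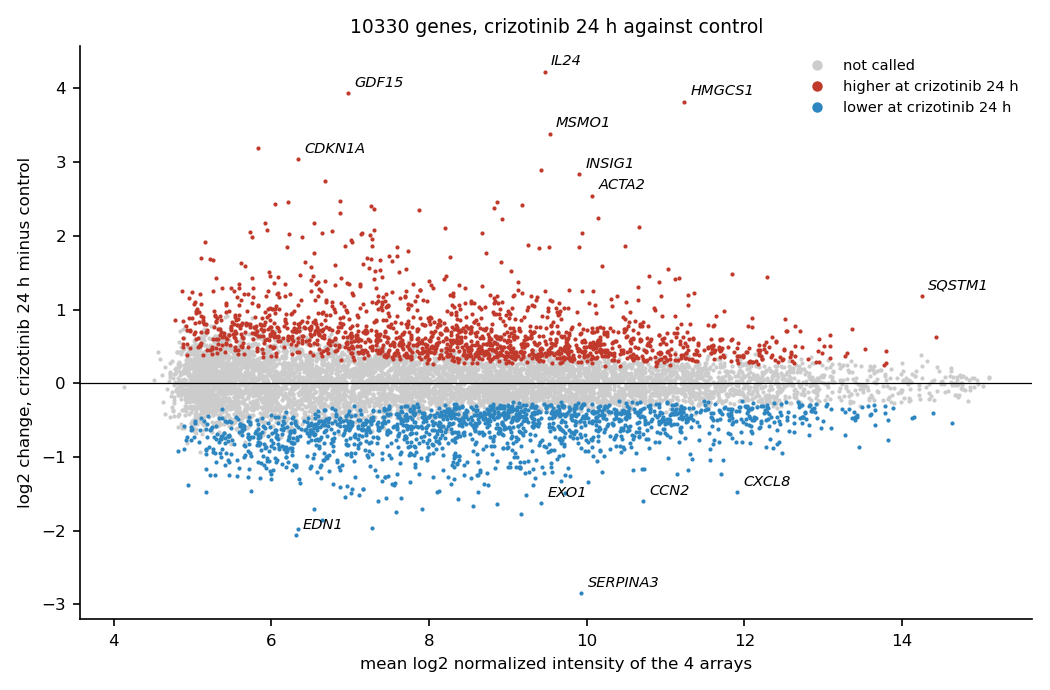
Change against level for the 10330 genes tested: the horizontal axis is the mean log2 intensity of the 4 arrays and the vertical axis the log2 change, crizotinib 24 h minus control, with called genes coloured by direction. IL24 (4.23) and HMGCS1 (3.82) sit far above the bulk and SERPINA3 (-2.85) below it.

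As background, sterol-poor membranes release the SREBP transcription factors from the endoplasmic reticulum, and these turn on cholesterol and fatty acid synthesis. When inhibitors such as CDKN1A block cyclin-dependent kinases, the repressor complex DREAM and the RB proteins hold down genes of DNA replication and mitosis. E2F factors bind many replication gene promoters, and paired CCAAT and cell cycle homology (CHR) letters mark many mitotic ones.

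Promoter letters are shown for genes described below, as RefSeq gives them on GRCh38.p14, 5′ to 3′ on the gene's strand and ending before the start site. First come 4 mitotic genes that fell, with CCAAT and the CHR letters TTTGAA, on either strand, in capitals. The stretch of SPC25 shows CCAAT only, since its CHR matches start 247 and 3 bases before the start site, outside the stretch or across its end. In MKI67 a CHR match and a CCAAT match overlap by 1 base.
SPC25, chr2:168890431-168890530, minus strand: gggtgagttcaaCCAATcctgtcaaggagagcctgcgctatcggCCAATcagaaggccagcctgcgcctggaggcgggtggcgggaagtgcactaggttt
ZWINT, chr10:56361260-56361389, minus strand: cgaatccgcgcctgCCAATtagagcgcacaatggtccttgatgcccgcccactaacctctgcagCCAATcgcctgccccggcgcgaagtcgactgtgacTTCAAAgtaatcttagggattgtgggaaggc
KIF23, chr15:69414249-69414348, plus strand: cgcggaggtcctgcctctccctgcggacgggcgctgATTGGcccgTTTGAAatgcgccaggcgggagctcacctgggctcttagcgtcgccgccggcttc
MKI67, chr10:128126424-128126533, minus strand: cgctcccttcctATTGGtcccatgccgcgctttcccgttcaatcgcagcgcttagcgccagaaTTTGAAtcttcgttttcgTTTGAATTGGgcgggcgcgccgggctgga

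The next promoter belongs to DTL, a replication licensing regulator that fell, with the E2F letters TTTGGCGC in capitals.
DTL, chr1:212035688-212035747, plus strand: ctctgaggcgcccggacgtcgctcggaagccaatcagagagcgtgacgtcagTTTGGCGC

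The last 3 belong to genes of protein folding in the endoplasmic reticulum (ER) that fell, with the ER stress response element in capitals, which is CCAAT, 9 free bases and CCACG, read on the other strand in CRELD2.
HSPA5, chr9:125241364-125241443, minus strand: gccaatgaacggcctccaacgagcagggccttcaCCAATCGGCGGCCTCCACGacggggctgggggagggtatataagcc
CRELD2, chr22:49918524-49918603, plus strand: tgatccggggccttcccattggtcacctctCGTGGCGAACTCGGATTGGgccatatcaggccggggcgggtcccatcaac
XBP1, chr22:28800580-28800659, minus strand: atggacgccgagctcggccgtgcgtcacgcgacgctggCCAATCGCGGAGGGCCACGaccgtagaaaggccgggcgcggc

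Over whole windows from 250 bases before to 50 after the start, on both strands, CCAAT stood in 33 of the 46 tested mitotic genes with a window (71.7%) and TTTGAA in 34 (73.9%). Of the windows of all tested genes, 37.6% held CCAAT and 9.82% held TTTGAA. Among the 37 mitotic genes with a window that were called lower, 28 held each. TTTGGCGC stood in 6 of 41 replication windows (14.6%) and in 1.1% of those of all tested genes. The ER element stood in 6 of 32 windows of the ER list (18.8%) and in 0.155% of those of all tested genes. It stood in 3 of the 11 windows of ER genes called lower and in 0 of the 3 of those called higher. Its other carriers, HSP90B1, CALR and CANX, were not called. No cholesterol synthesis window, of 14, held the sterol element letters TCACCCCAC or TCACNCCAC, which stood in 0.406% and 1.05% of tested windows. These are letter matches within these windows only.

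The cholesterol pathway rose almost as a whole. Of 16 enzymes tested, of 22 listed, 14 were called higher and 0 lower, against 15.5% of all genes in each direction, with a median change of 1.69 against 0.0054 for all genes tested. Without any 1 array, 12 to 14 were called higher. A gene could enter a count through detection in 1 group alone, which holds for every list below. Lists and members were also chosen with earlier results of these data known. List counts against control, here and below, are therefore descriptions beside the 15.5% of all genes in each direction and do not test it.

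**Figure D2:**
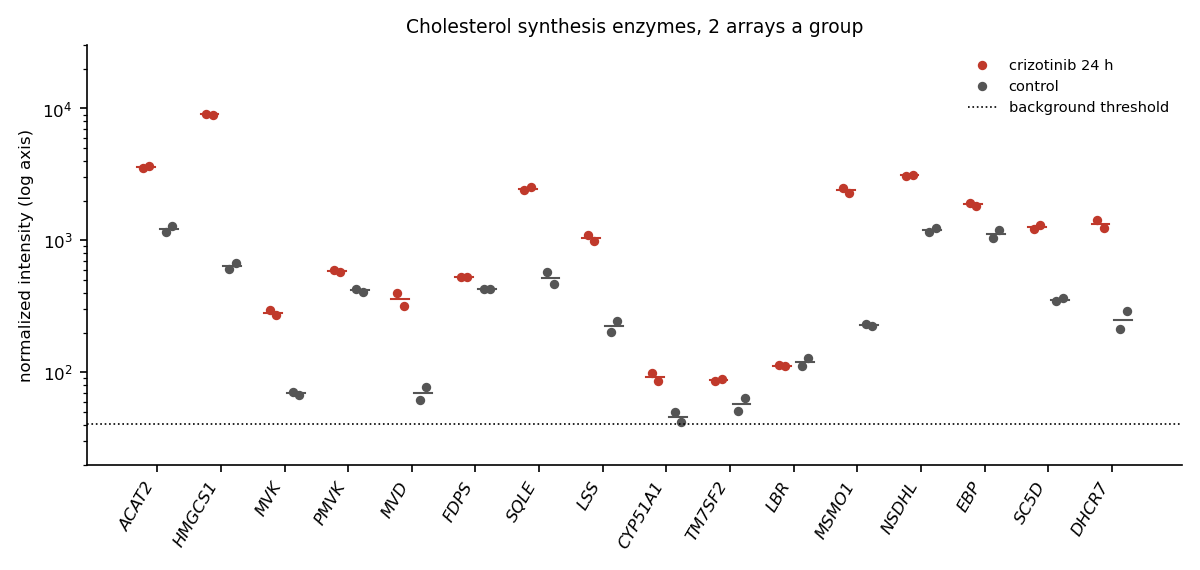
Normalized intensity (log axis) of the 16 cholesterol synthesis enzymes tested, from early to late steps, on the 2 crizotinib 24 h arrays (red) and the 2 control arrays (grey); short bars are geometric means and the dotted line is the background threshold, 40.3. The groups do not overlap for the 14 called enzymes, and FDPS and LBR were not called.

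HMGCS1, the synthase that makes HMG-CoA, read 9138 and 8956 at crizotinib 24 h, against 609.8 and 673 in control. Both treated arrays lay far above both controls, a change of 3.82 ± 0.091 (limma adjusted p = 4.7e-09), or 14.1-fold. MSMO1, the methyl sterol oxidase of the later steps, read 2485 and 2301 at crizotinib 24 h and 234 and 224 in control, a change of 3.39 ± 0.12 (limma adjusted p = 7.5e-08). A second MSMO1 probe gave 3.57. DHCR7, which makes cholesterol in the last reduction, had 1440.1 and 1250.1 at crizotinib 24 h and 214 and 294 in control, a change of 2.42 ± 0.17. The groups stayed apart despite the spread between the 2 control arrays.

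MVD, the decarboxylase of the mevalonate branch, read 401 and 318 at crizotinib 24 h and 62.2 and 77.9 in control, a change of 2.36 ± 0.27. MVK, mevalonate kinase, read 295 and 271 at crizotinib 24 h and 71.4 and 67.9 in control, a change of 2.02 ± 0.16. SQLE, the epoxidase that opens the sterol branch, read 2415 and 2527 at crizotinib 24 h and 575 and 471 in control, a change of 2.25 ± 0.12, and its other probe gave 2.30. Enzymes before and after squalene therefore rose. LSS, lanosterol synthase, rose by 2.22 ± 0.13 on its brighter probe and by 0.67 on its other, so its size depends on the probe. SC5D, a desaturase of the last steps, rose by 1.84 ± 0.13.

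INSIG1, the ER protein that holds SREBP back when sterols are plentiful and is itself an SREBP target, read 2487 and 2639 at crizotinib 24 h and 385 and 332 in control. It rose by 2.84 ± 0.10 (limma adjusted p = 7.5e-08) and by 2.87 on its other probe. SREBF1, the gene of SREBP1, moved the other way, with 193 and 200.1 at crizotinib 24 h and 323 and 376 in control, a change of -0.83 ± 0.11. SREBF2, the gene of SREBP2, lay at the background threshold in both groups, 40.6 and 47.4 at crizotinib 24 h and 37.4 and 43.2 in control, and was not called. MYLIP, a ubiquitin ligase of sterol control and is an LXR target, fell to 207 and 198 at crizotinib 24 h, against 492 and 505 in control, a change of -1.30 ± 0.12. SREBF1 is an LXR target too. ABCA1, the cholesterol exporter under LXR, was below background in both groups. Of 5 tested genes of LXR and sterol efflux, 1 was called higher and 0 lower, with a median of 0.24. The share of all genes was 15.5% in each direction, and LXR activity was not tested.

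Sterol handling outside synthesis rose less. Of 11 tested genes of uptake and traffic, 6 were higher and 2 lower, and 4 higher and 1 lower without control replicate 2. NPC1, which moves cholesterol out of lysosomes, read 907 and 941 at crizotinib 24 h and 433 and 459 in control, a change of 1.05 ± 0.087. SCARB1, a lipoprotein receptor, read 1563 and 1521 at crizotinib 24 h and 772 and 827 in control, a change of 0.95 ± 0.096. In both genes the treated arrays lay above the controls. OSBPL1A, an oxysterol-binding protein, rose by 0.59 ± 0.11.

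Fatty acid genes rose in part: 7 of 19 tested were higher and 1 lower, with a median of 0.17. The median turned to -0.03 under median scaling and was 0.16 with scaling on detected probes. LPIN1, a phosphatidate phosphatase, read 3236 and 3504 at crizotinib 24 h and 821 and 733 in control, a change of 2.12 ± 0.12 (limma adjusted p = 2e-06). ACSS2, which makes acetyl-CoA from acetate, rose to 2078 and 1991 at crizotinib 24 h, against 711 and 646 in control, a change of 1.59 ± 0.10. SCD, the desaturase of saturated fatty acids, read 7807 and 8722 at crizotinib 24 h and 3184 and 2888 in control, a change of 1.44 ± 0.10. These 3 were the largest risers of the list that kept their calls without any 1 array. FADS1, a desaturase of longer chains, rose by 0.97 ± 0.092, and FASN, fatty acid synthase, by 0.65 ± 0.12. HACD3, a dehydratase of chain elongation, fell by 1.46-fold, with 3345 and 3495 at crizotinib 24 h and 5318 and 4703 in control.

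Lysosomal genes moved upward by smaller steps. As background, the factors TFEB, TFE3 and MITF turn on lysosomal and autophagy genes when lysosomes are stressed or mTORC1 is off. Of 33 hydrolases and their helpers tested, 18 were higher and 1 lower, with a median of 0.45, and 13 to 16 were higher without any 1 array. Of 20 membrane proteins and regulators tested, 12 were higher and 0 lower, with a median of 0.45.

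CTSF, a cysteine protease, read 399 and 395 at crizotinib 24 h and 116 and 114 in control, a change of 1.79 ± 0.16 (limma adjusted p = 3.4e-05). NEU1, lysosomal sialidase, read 517 and 473 at crizotinib 24 h and 159.8 and 202 in control, a change of 1.46 ± 0.13. PSAP, precursor of the saposins that help degrade sphingolipids, read 8213 and 8476 at crizotinib 24 h and 4879.9 and 4829 in control, a change of 0.78 ± 0.11. In these 3 genes, as in every called gene, the groups did not overlap. CTSD, an aspartic protease, rose by 0.89 ± 0.12, ASAH1, acid ceramidase, by 0.92 ± 0.18, and FUCA1, a fucosidase, by 0.84 ± 0.13. GLA, the alpha-galactosidase that degrades globotriaosylceramide, was the hydrolase that fell, with 1257 and 1261 at crizotinib 24 h and 2024 and 2116 in control, a change of -0.72 ± 0.098.

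GPNMB, a glycoprotein of melanosomes and lysosomes, read 1072 and 1269.5 at crizotinib 24 h and 351 and 288 in control, a change of 1.88 ± 0.14. RRAGD, a Rag GTPase that brings mTORC1 to the lysosome and a TFE target, read 1457 and 1262 at crizotinib 24 h and 576 and 551 in control, a change of 1.27 ± 0.097. FNIP1, partner of folliculin in the same switch, read 455 and 378 at crizotinib 24 h and 139.8 and 181 in control, a change of 1.38 ± 0.17. RRAGD and FNIP1 both act on the Rag switch of mTORC1. CD68, a lysosomal glycoprotein, rose by 1.13 ± 0.092 and RRAGC by 1.02 ± 0.08. MITF read 44.5 and 40.9 at crizotinib 24 h and 35.8 and 52.0 in control, with overlapping groups near background. The proton pump V-ATPase had 8 of 15 tested subunits higher. The count fell to 4 without control replicate 1 and to 5 without crizotinib 24 h replicate 1. Under median scaling 1 was higher, and with scaling on detected probes 7.

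Autophagy genes were higher in 10 of 27 tested and lower in 1, with 6 higher when control replicate 2 and 5 when crizotinib 24 h replicate 1 was left out. SQSTM1, the cargo receptor p62, read 30209 and 28629.7 at crizotinib 24 h and 12689 and 13229 in control, a change of 1.18 ± 0.095 (limma adjusted p = 1.9e-05). OPTN, another cargo receptor, read 255 and 248 at crizotinib 24 h and 83.8 and 80.9 in control, a change of 1.61 ± 0.15. WIPI1, which binds the early autophagic membrane, rose by 1.39 ± 0.18 and MAP1LC3A by 0.77 ± 0.094. ATG5, part of the conjugating machinery for LC3, fell by 1.71-fold, with 60.6 and 53.3 at crizotinib 24 h and 91.2 and 103 in control.

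CDKN1A, GDF15 and MDM2 lay below background in control and rose at crizotinib 24 h. CDKN1A, the inhibitor p21 of cyclin-dependent kinases, read 240.2 and 225 at crizotinib 24 h and 30.01 and 26.7 in control. Control arrays lay below the background threshold of 40.3, so the rise is at least 5.77-fold (limma adjusted p = 1.1e-05). Such a bound sets the treated mean against the lowest intensity above background. GDF15, a stress cytokine, read 494 and 485 at crizotinib 24 h and 33.2 and 30.9 in control, at least 12.1-fold higher (limma adjusted p = 1.1e-06). MDM2, a ubiquitin ligase, was at least 3.76-fold higher, with 139.9 and 164 at crizotinib 24 h and 37.4 and 36.7 in control.

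**Figure D3:**
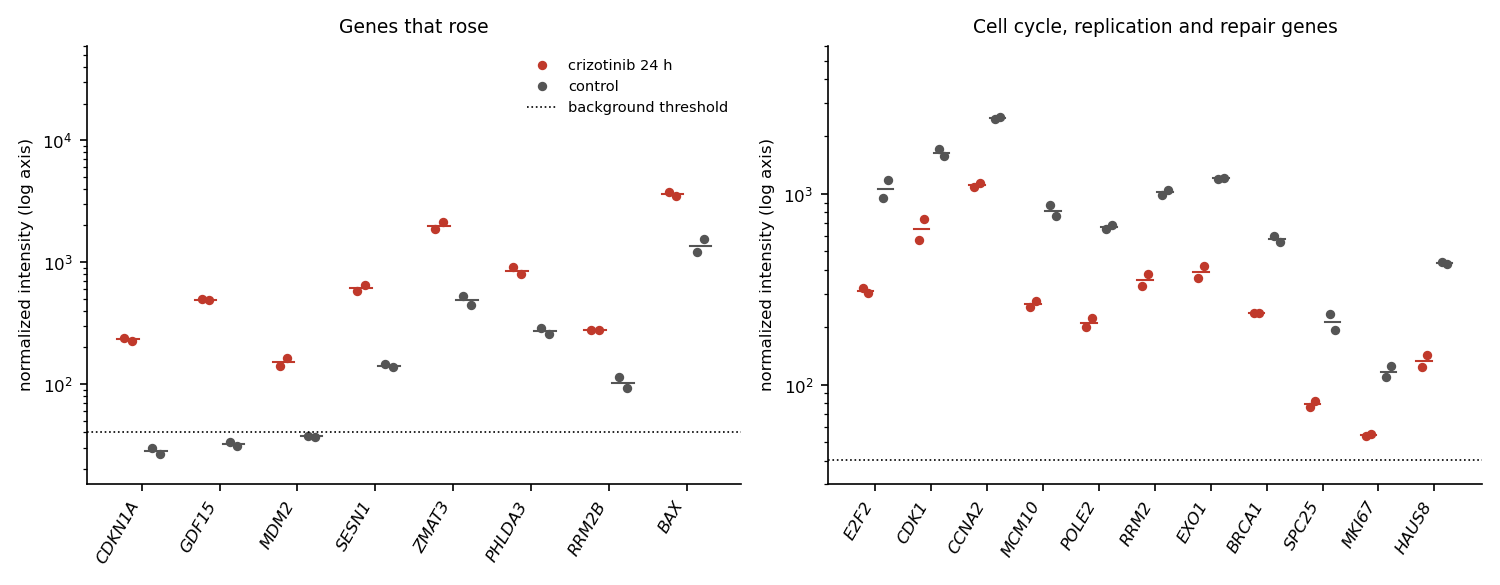
Normalized intensity (log axis) on the 2 crizotinib 24 h arrays (red) and the 2 control arrays (grey) for 8 genes that rose (left) and for genes of cell cycle, replication and repair (right); short bars are geometric means and the dotted line is the background threshold, 40.3. On the left red lies above grey for every gene, and on the right it is the lower of the pair.

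SESN1, a sestrin that restrains mTORC1, read 578 and 646 at crizotinib 24 h and 145 and 138 in control, a change of 2.11 ± 0.10. ZMAT3, an RNA-binding protein, read 1861 and 2119 at crizotinib 24 h and 532 and 443 in control, a change of 2.03 ± 0.14 with 2.002 on its other probe. In both genes both treated arrays lay above both controls. BAX, which opens the mitochondrial outer membrane, read 3776 and 3481 at crizotinib 24 h and 1202 and 1535 in control, a change of 1.42 ± 0.15 and of 0.78 on its other probe. HRK, a BH3-only activator of cell death, rose to 253 and 217 at crizotinib 24 h, against 62.1 and 66.7 in control, a change of 1.87 ± 0.18. Of 13 tested BCL2 family genes, only these 2 were higher and 3 were lower (median -0.014), against 15.5% of all genes in each direction. The 3 were PMAIP1, BID and BCL2, and each lost its call in 6 or more alternative settings. RRM2B, the subunit of ribonucleotide reductase used by resting cells, rose by 1.44 ± 0.21, while RRM2, the subunit of cycling cells, fell to 329.8 and 381 at crizotinib 24 h, against 990.2 and 1046 in control, a change of -1.52 ± 0.14.

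Genes of cell division fell together. Of 48 replication genes tested, 41 were lower and 0 higher (median -0.77, 38 to 42 lower without any 1 array). Of 56 mitotic genes, 47 were lower and 0 higher (median -0.75, 43 lower without any 1 array). Of 23 genes of homologous recombination and Fanconi repair, 20 were lower and 0 higher (median -1.03). Nucleotide synthesis had 14 of 25 lower. Cell cycle regulators were lower in 19 of 39 and higher in 4. CDKN1A is among those that rose.

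Among regulators, E2F2, an activator of S phase genes, read 321 and 301 at crizotinib 24 h and 957 and 1187 in control, a change of -1.78 ± 0.13 (limma adjusted p = 1.1e-05). CDC25A, the phosphatase that switches on cyclin-dependent kinases, read 398 and 394 at crizotinib 24 h and 926 and 1139 in control, a change of -1.38 ± 0.16. CCNA2, cyclin A2, read 1082 and 1137 at crizotinib 24 h and 2467 and 2517 in control, a change of -1.17 ± 0.093. Replicates lay close together beside this gap for CCNA2. CDK1, the mitotic kinase, fell by 2.53-fold and CCNB1, its cyclin, by 1.92-fold. CCNA1, the germline cyclin A, went the other way, with 171 and 178 at crizotinib 24 h and 87.5 and 80.9 in control, a change of 1.05 ± 0.16. CCND1, cyclin D1, read 7747 and 7602 at crizotinib 24 h and 8916 and 9004 in control and was not called (limma adjusted p = 0.15).

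In replication, POLE2, a subunit of DNA polymerase epsilon, read 200.1 and 223 at crizotinib 24 h and 658 and 688 in control, a change of -1.67 ± 0.12 (limma adjusted p = 1.1e-05). MCM10, which starts the helicase, read 254 and 273 at crizotinib 24 h and 878 and 762 in control, a change of -1.63 ± 0.18. DTL, whose E2F letters are printed above, read 84.8 and 105 at crizotinib 24 h and 292 and 278 in control, a change of -1.59 ± 0.17. DTL directs the breakdown of the licensing factor CDT1. ORC1, which marks origins, fell by 2.57-fold, CDC7, the kinase that fires them, by 2.57-fold, and CHAF1A, a chaperone placing histones behind the fork, by 2.61-fold. TYMS, thymidylate synthase, fell by 1.55-fold and RRM1 by 1.56-fold.

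In repair, EXO1, the nuclease that trims broken ends, read 363 and 419.9 at crizotinib 24 h and 1197 and 1217 in control, a change of -1.63 ± 0.12 (limma adjusted p = 1.5e-05). FANCB, of the Fanconi core complex, read 55.8 and 47.7 at crizotinib 24 h and 171 and 164 in control, a change of -1.70 ± 0.15. BRCA1 read 239 and 237 at crizotinib 24 h and 604 and 558 in control, a change of -1.29 ± 0.14 with -1.30 on its other probe. Its partner BARD1 fell by 2.34-fold. RAD54L, a motor of strand exchange, fell by 2.77-fold, BLM, a helicase that undoes crossovers, by 2.70-fold, and MSH6, of mismatch repair, by 2.34-fold.

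In mitosis, the genes of the printed promoters read as follows. SPC25, of the outer kinetochore, had 76.4 and 81.7 at crizotinib 24 h and 235 and 194 in control, a change of -1.44 ± 0.12 (limma adjusted p = 2.7e-05). ZWINT, which links the kinetochore to its checkpoint, had 282 and 276 at crizotinib 24 h and 696 and 609 in control, a change of -1.22 ± 0.12. KIF23, a motor of cytokinesis, had 379.6 and 381 at crizotinib 24 h and 839 and 832 in control, a change of -1.13 ± 0.11, and -0.30 on its other probe. MKI67, the proliferation antigen Ki-67, had 54.0 and 54.8 at crizotinib 24 h and 109 and 125 in control, a change of -1.11 ± 0.18. In all 4 both treated arrays lay below both controls. HAUS8, of the augmin complex that branches spindle microtubules, fell furthest of the list, to 124 and 143 at crizotinib 24 h, against 438 and 428 in control, a change of -1.70 ± 0.10.

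Histone probes split. Of 18 tested, 4 were higher and 7 lower, against 15.5% of all genes in each direction. H2BC5, a clustered H2B gene, read 245 and 261 at crizotinib 24 h and 65.5 and 66.1 in control, a change of 1.94 ± 0.15 and of 0.71 on its other probe. H2AX, the variant marked at DNA breaks, read 407 and 377 at crizotinib 24 h and 771 and 797 in control (limma adjusted p = 0.0004). SLBP, which binds the stem-loop of replication histone messages, fell by 1.80-fold. Clustered histone genes are near-identical, so a probe may read several of them.

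**Figure D4:**
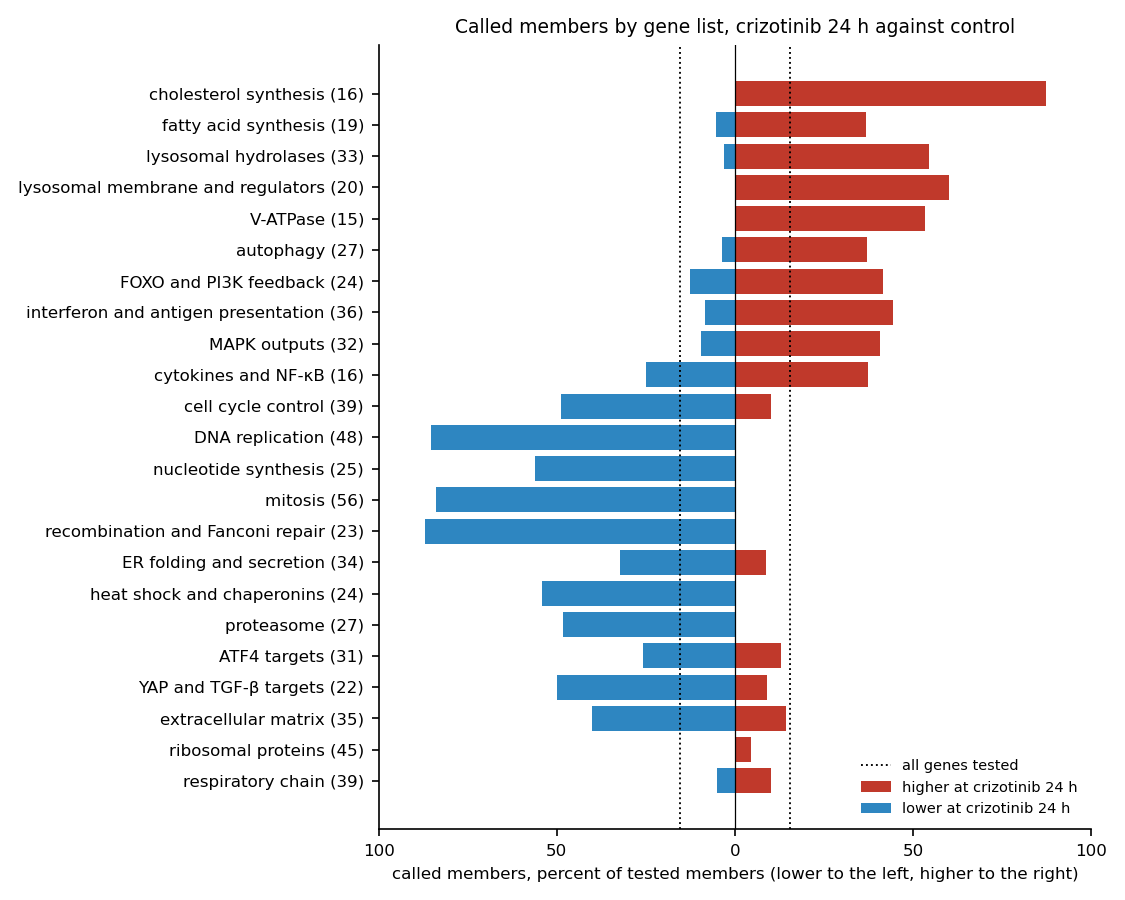
Percent of tested members called lower (blue, to the left) and higher (red, to the right) at crizotinib 24 h against control for 23 gene lists, with the number tested in brackets; the dotted lines mark 15.5%, the share of all genes in each direction. Cholesterol synthesis, with 14 of 16 higher, reaches far to the right, and replication, mitosis and recombination repair reach far to the left. The lists were chosen with earlier results of these data known.

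Protein folding genes were lower in part. Of 34 genes of ER folding and secretion tested, 11 were lower and 3 higher. With control replicate 1 or crizotinib 24 h replicate 1 left out, 8 were lower and 1 higher, and with crizotinib 24 h replicate 2 left out, 6 were lower and 1 higher. HSPA5, the ER chaperone BiP, read 395 and 443 at crizotinib 24 h and 1028 and 1008 in control, a change of -1.28 ± 0.10 (limma adjusted p = 1.6e-05). XBP1, a transcription factor of the unfolded protein response, read 1241 and 1212 at crizotinib 24 h and 1763 and 1675 in control, a change of -0.49 ± 0.10. CRELD2, a secreted ER stress protein, had 785 and 734 at crizotinib 24 h and 1075 and 1037 in control, a change of -0.48 ± 0.094. In all 3 genes of the printed elements both treated arrays lay below both controls. MANF, another ER stress factor, fell by 1.47-fold, while SEC23B, of the vesicle coat that leaves the ER, rose by 0.69 ± 0.098.

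Genes of heat shock and chaperonins, cytosolic and mitochondrial, were lower in 13 of 24 tested and higher in 0. Fewer were lower when either control replicate 1 or crizotinib 24 h replicate 1 was left out. HSPA1A, inducible HSP70, read 478 and 454 at crizotinib 24 h and 1058 and 982 in control, a change of -1.13 ± 0.17. Its near-identical copy HSPA1B fell by 1.42-fold, and the 2 probes may share transcripts. Proteasome subunits were lower in 13 of 27, but in 4 when control replicate 1 and 5 when crizotinib 24 h replicate 1 was left out. PSMD14, the deubiquitinase of the proteasome lid, fell by 1.54-fold.

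Of 31 tested genes of the amino acid response driven by ATF4, 4 were higher and 8 lower, against 15.5% of all genes each way. Under median scaling 14 were lower, and with scaling on detected probes 8. ATF3, a stress factor, read 356 and 352 at crizotinib 24 h and 132 and 147 in control, a change of 1.35 ± 0.16. PPP1R15A, which restores translation after stress, read 3908 and 4128 at crizotinib 24 h and 1602 and 1839.9 in control, a change of 1.23 ± 0.12. SLC1A5, a glutamine carrier, went down to 396 and 368 at crizotinib 24 h, against 847 and 839.6 in control, a change of -1.14 ± 0.093. SLC1A5 had the largest fall of the list. PSAT1, of serine synthesis, fell by 1.66-fold and MTHFD2, a mitochondrial folate enzyme, by 1.65-fold. ATF4 read 6816 and 7574 at crizotinib 24 h and 8324 and 8699 in control and was not called.

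MET, a target of the drug, read 340.0 and 341 at crizotinib 24 h and 439 and 362 in control, a difference of -0.23 ± 0.13 with a limma adjusted p of 0.22. ALK lay below background in both groups and gets no change here. The outputs of MAPK signalling, read downstream of BRAF and receptor kinases, were higher in 13 of 32 and lower in 3 (15.5% of all genes each way). Their count moved with each array, to 8 higher and 1 lower without control replicate 1 or crizotinib 24 h replicate 1, and to 9 higher and 1 lower without control replicate 2 or crizotinib 24 h replicate 2. Their median of 0.062 turned to -0.11 under median scaling, where 8 were higher and 9 lower. With scaling on detected probes their median was 0.085. DUSP10, a phosphatase of JNK and p38, read 163 and 170.4 at crizotinib 24 h and 49.5 and 35.6 in control, a change of 1.99 ± 0.25, with 1 of the 2 control arrays above background. DUSP5, a nuclear ERK phosphatase, read 1141 and 1092 at crizotinib 24 h and 597 and 564 in control, a change of 0.94 ± 0.098. JUN, of the factor AP-1, fell to 429 and 387 at crizotinib 24 h, against 726 and 637 in control, a change of -0.74 ± 0.14. DUSP6, a widely used ERK readout, read 936 and 1026 at crizotinib 24 h and 1396 and 1153 in control and was not called (limma adjusted p = 0.067).

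PTPRR, a tyrosine phosphatase that binds ERK and p38, read 163 and 181 at crizotinib 24 h and 19.4 and 18.3 in control, at least 4.26-fold higher, but its other probe gave 0.27. Among FOXO and PI3K feedback genes, 10 of 24 were higher and 3 lower, against 15.5% of all genes in each direction. TXNIP, which blocks glucose uptake and thioredoxin, read 1952 and 1692 at crizotinib 24 h and 472 and 544 in control, a change of 1.84 ± 0.13. FOXO1 read 191 and 166 at crizotinib 24 h and 83.8 and 59.2 in control, a change of 1.34 ± 0.27. As background, FOXO factors act when PI3K signalling is low and raise receptor adaptors. Of these adaptors, IRS2 rose by 1.02 ± 0.10 and IRS1 fell by 1.60-fold. FGFR3, a receptor kinase, fell by 2.06-fold on its brighter probe and gave -0.32 on the other. EFNB2, an ephrin ligand, read 131 and 104 at crizotinib 24 h and 359.7 and 325 in control, a change of -1.55 ± 0.12.

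Secreted factors held the largest changes in both directions. IL24, a cytokine of the IL-10 family first found in differentiating melanoma cells, read 3001 and 3129 at crizotinib 24 h and 159 and 168 in control. Its change of 4.23 ± 0.12 (limma adjusted p = 2.1e-08), 18.8-fold, was the largest rise among the named genes. SERPINA3, a secreted protease inhibitor, read 404 and 329 at crizotinib 24 h and 2954 and 2324 in control. Its change of -2.85 ± 0.26 (limma adjusted p = 3.8e-05) was the largest fall. CXCL8, a chemokine for neutrophils, read 2301 and 2313 at crizotinib 24 h and 6457 and 6400.4 in control, a change of -1.48 ± 0.13, while IL1B rose to 353 and 363 at crizotinib 24 h, against 117 and 126 in control. The cytokine list as a whole had 6 of 16 higher and 4 lower, against 15.5% of all genes in each direction. DKK1, a WNT inhibitor, rose by 0.87 ± 0.12 and SEMA3B, a semaphorin, by 1.25 ± 0.22.

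Targets of YAP and TGF-β were lower in 11 of 22 tested and higher in 2 (15.5% of all genes each way), with a median of -0.47. EDN1, endothelin, read 33.0 and 46.4 at crizotinib 24 h and 169 and 157 in control, a change of -2.06 ± 0.17 (limma adjusted p = 2.4e-05). Only 1 of the 2 treated arrays was above background for EDN1, so the size of its fall is uncertain. CCN2, the matricellular protein CTGF, read 997 and 932 at crizotinib 24 h and 2992 and 2842 in control, a change of -1.60 ± 0.10. THBS1, thrombospondin, read 1819.8 and 1789 at crizotinib 24 h and 3711 and 3631 in control, a change of -1.02 ± 0.11. All 3 encode secreted proteins. BAMBI, a decoy TGF-β receptor, fell by 1.87-fold, HES1, a Notch target, by 1.91-fold, and SMAD3 by 1.84-fold. FST, the activin binder follistatin, rose by 1.07 ± 0.14.

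Matrix genes were lower in 14 of 35 and higher in 5, against 15.5% of all genes in each direction. XYLT1, which starts glycosaminoglycan chains, read 40.5 and 41.0 at crizotinib 24 h and 160.4 and 162 in control, a change of -1.98 ± 0.14. COL5A2, a fibrillar collagen, read 527 and 485 at crizotinib 24 h and 1409 and 1432 in control, a change of -1.49 ± 0.089. HAS2, a hyaluronan synthase, was at least 1.499-fold lower, with 22.2 and 21.1 at crizotinib 24 h, below background, and 61.7 and 59.3 in control. Its relative HAS3 fell by 2.34-fold. COL4A1, of basement membrane, fell by 2.07-fold, whereas LAMA1, a laminin chain, rose by 1.30 ± 0.13, with 1 of the 2 control arrays above background. ITGB4, the integrin of hemidesmosomes, was at least 2.68-fold higher, with 99.5 and 117 at crizotinib 24 h and both control arrays below background. ACTA2, smooth muscle actin, rose to 2602 and 2587 at crizotinib 24 h, against 436 and 453 in control, a change of 2.54 ± 0.089, while TPM1, a tropomyosin, fell by 1.40-fold.

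Genes of interferon response and antigen presentation were higher in 16 of 36 and lower in 3, but in 10 and 2 without crizotinib 24 h replicate 1. ISG20, an RNA exonuclease, read 4102 and 3491 at crizotinib 24 h and 1724 and 1574 in control, a change of 1.20 ± 0.14. TAP1, which carries peptides to class I molecules, rose by 0.78 ± 0.092, and IRF1, an interferon factor, fell by 1.54-fold. HIF targets were higher in 8 of 21 and lower in 3, against 15.5% of all genes in each direction. Under median scaling 6 were higher and 7 lower, and the median of 0.11 turned to -0.059. With scaling on detected probes 10 were higher and 4 lower, with a median of 0.14. BHLHE40, a repressor of the clock, read 1434 and 1359 at crizotinib 24 h and 387 and 386 in control, a change of 1.85 ± 0.079, while ADM, adrenomedullin, fell by 1.76-fold. GAPDH, a glycolytic enzyme, read 26418 and 27317 at crizotinib 24 h and 27299.5 and 28855 in control and was not called. Melanocyte lineage genes gave 0 calls of 7 tested.

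Further genes with the largest changes belong to none of these lists. AHNAK2, a large scaffold protein, read 1837 and 1916 at crizotinib 24 h and 227 and 279 in control, a change of 2.90 ± 0.19 with 3.01 on its other probe. SUGCT, a mitochondrial CoA transferase, read 1125 and 1063 at crizotinib 24 h and 205 and 194 in control, a change of 2.45 ± 0.10. FGFBP1, which releases FGF from matrix, was at least 4.32-fold higher and NPFFR2, a neuropeptide receptor, at least 3.81-fold. SH2D5 rose by 2.75 ± 0.24 on its brighter probe but gave -0.20 on the other, so its rise is uncertain. CNIH2, an AMPA receptor auxiliary protein, read 87.0 and 70.1 at crizotinib 24 h and 286 and 328 in control, a change of -1.97 ± 0.14. MIX23, a mitochondrial protein, fell by 2.97-fold.

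The earlier time was tested as crizotinib 24 h minus crizotinib 8 h, with the spread taken from the arrays of all 5 groups. This called 3988 genes (38.6%), 2191 higher (21.2%) and 1797 lower (17.4%), and 0 under the described names. The arrays of the 2 groups alone gave 3474 calls. Cholesterol synthesis was higher at 24 h than at 8 h in 14 of 16 and lower in 1 (median 1.18). Mitotic genes were lower in 54 of 56 (median -1.07), and replication genes were lower in 42 of 48 and higher in 1 (median -0.76). Against control, crizotinib 8 h itself had 17 of 56 mitotic genes higher and 1 lower (median 0.31). Of all genes, 4.45% were higher there and 5.34% lower. The mitotic median thus stood above control at 8 h and below it at 24 h.

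HMGCS1 read 9138 and 8956 at crizotinib 24 h and 1988, 1957 and 2047 at crizotinib 8 h, a difference of 2.18 ± 0.083 (limma adjusted p = 1.6e-07). The 8 h arrays lay between control and 24 h, and INSIG1, with 1224, 1114 and 1214 at crizotinib 8 h, did so too (1.11 ± 0.094). GDF15 was near background at crizotinib 8 h, 35.6, 40.3 and 23.5, against 494 and 485 at crizotinib 24 h, and CDKN1A read 24.8, 26.5 and 25.1 at crizotinib 8 h. CDKN1A lay below the background threshold on all 3 arrays of crizotinib 8 h, so crizotinib 24 h was at least 5.765-fold higher (limma adjusted p = 3.4e-06). MKI67 had 54.0 and 54.8 at crizotinib 24 h and 189, 206 and 162 at crizotinib 8 h, a difference of -1.77 ± 0.16. FNIP1, in contrast, gave 0.0033 ± 0.16 with a limma adjusted p of 0.99, and SREBF1 -0.13 ± 0.098 with one of 0.34, so no difference from 8 h was called for these.

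Against control, crizotinib 8 h itself called 1012 genes (9.80%), 460 higher (4.45%) and 552 lower (5.34%), over the same 2 control arrays. Some genes stood on opposite sides of control at the 2 times. ACTA2 read 2602 and 2587 at crizotinib 24 h, 336, 362 and 362 at crizotinib 8 h and 436 and 453 in control, with 24 h above 8 h by 2.88 ± 0.081 (limma adjusted p = 2.7e-08). SPC25 had the reverse order, with 76.4 and 81.7 at crizotinib 24 h, 255, 296 and 306 at crizotinib 8 h and 235 and 194 in control, and 24 h differed from 8 h by -1.85 ± 0.11 (limma adjusted p = 3e-06). SESN1 was lowest at crizotinib 8 h, with 108, 105 and 95.5 there, and 24 h lay above it by 2.57 ± 0.093.

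The other drug at the same time was tested as crizotinib 24 h minus ciclopirox 24 h, which shares the crizotinib arrays with the contrasts above. It called 2494 genes (24.1%), 1275 higher (12.3%) and 1219 lower (11.8%), and 0 under the described names. Cholesterol synthesis was higher at crizotinib 24 h in 14 of 16 and lower in 0 (median 1.55). Recombination and Fanconi genes were lower in 19 of 23 and mitotic genes in 24 of 56. Against control, ciclopirox 24 h itself had 25 of 56 mitotic genes lower, against 4.94% of all genes. Lower there too were 14 of 48 replication genes, 3 of 23 recombination and Fanconi genes and 10 of 24 genes of heat shock and chaperonins. Between the drugs, ATF4 targets were lower at crizotinib 24 h than at ciclopirox 24 h in 25 of 31 and higher in 0 (median -0.89). Against the shared control arrays, these genes had 4 higher and 8 lower at crizotinib 24 h (median -0.12), and 23 higher and 1 lower at ciclopirox 24 h (median 0.93), where 5.68% of all genes were called higher and 4.94% lower.

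HMGCS1 read 9138 and 8956 at crizotinib 24 h and 462 and 453 at ciclopirox 24 h, a difference of 4.30 ± 0.091 (limma adjusted p = 1.3e-09). IL24 read 3001 and 3129 at crizotinib 24 h and 366 and 375.5 at ciclopirox 24 h, a difference of 3.05 ± 0.12. GDF15 read 494 and 485 at crizotinib 24 h and 458 and 411 at ciclopirox 24 h, a difference of 0.17 ± 0.20 that was not called (limma adjusted p = 0.57). The first 2 genes differed between the drugs, and for GDF15 no difference was called. CDKN1A read 68.0 and 46.2 at ciclopirox 24 h, lower than at crizotinib 24 h by a difference of 2.05 ± 0.22. HSPA1A read 478 and 454 at crizotinib 24 h and 173 and 121 at ciclopirox 24 h, a difference of 1.69 ± 0.17 (limma adjusted p = 9.2e-05). SERPINA3 was lower at crizotinib 24 h than at ciclopirox 24 h (-3.01 ± 0.26), with 3274 and 2631 at ciclopirox 24 h.

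**Figure D5:**
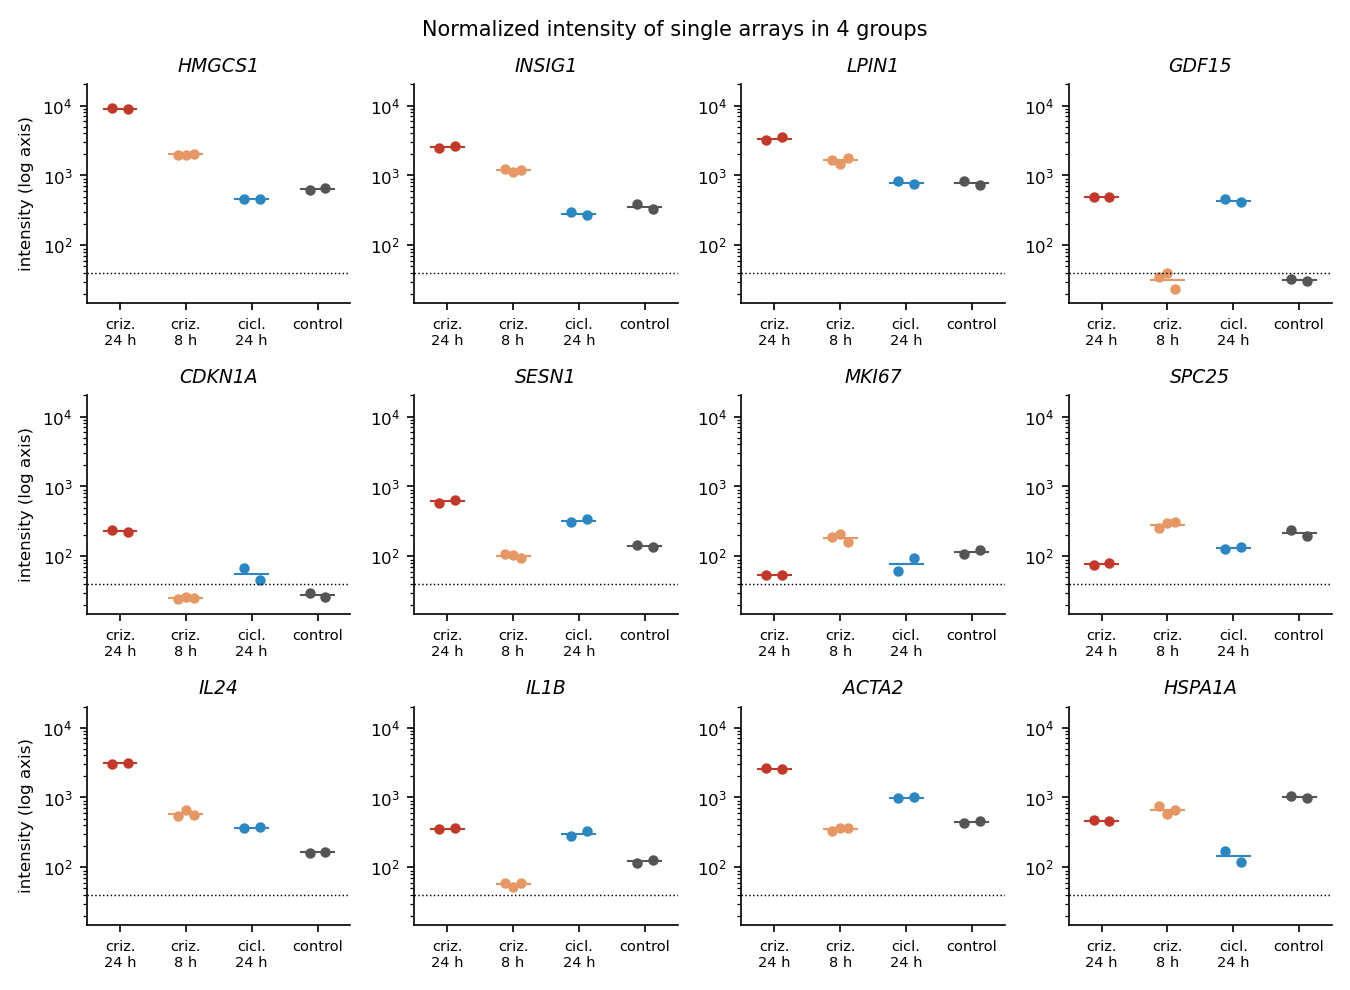
Normalized intensity (log axis) of 12 genes on single arrays of crizotinib 24 h, crizotinib 8 h, ciclopirox 24 h and control, with geometric means as short bars and the background threshold, 40.3, as a dotted line. HMGCS1, INSIG1 and LPIN1 are highest at crizotinib 24 h and lie above control on each 8 h array, while GDF15 and CDKN1A are near or below the threshold at crizotinib 8 h and in control.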

How the data were processed

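Gene expression was measured on 12 Illumina bead arrays. The authors deposited a scanner table whose columns, per the file headers, are intensity (average signal) and detection p-value over 47231 probes, and 28.8% of its intensities are below 0. The submitters' processing notes name GenomeStudio without a version. A second deposited table holds a normalized intensity for 38220 probes, from 12.0 to 38205.3, with nearly equal array medians (28.3 to 29.6) and a normalization not given in the sources used here. Only the 2 control columns of it followed the scanner column of their own description (r 0.928 to 0.979 for the best match of each array), while on its own names each of the 12 arrays correlated best with a replicate. Between 15639 and 17375 probes were detected per array. The number of arrays limits the precision.

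The filter kept 16563 probes that 2 or more of the 12 arrays detected at p under 0.01, log2 was taken, and the probe with the highest mean stood for its gene. Of the probes, 27002 had 1 symbol, 4 several and 11214 none, and 26968 matched RefSeq. limma 3.58.1 in R 4.3.3 fitted 1 mean per group over all 5 groups (7 residual degrees of freedom), with eBayes and Benjamini-Hochberg adjustment over 10330 genes and a threshold of 0.05. The fit was tested on simulated data. Intensity above the 99th percentile of probes detected on no array, 40.3, counted as above background. Named genes were the 15 largest called rises and falls above background on both arrays of a group, up to 8 called list members in each direction and a list of key genes. Members and gene lists were chosen with earlier results of these data known. Alternatives changed the arrays, filter, probe choice, offset, scaling and column names. Replicate numbers did not pair the arrays. Some results are not reported here.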

Additional observations from a re-analysis of the deposited data

Results flagged for a closer look

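In 13 of the 335 called named genes, limma called opposite changes against control at crizotinib 24 h and at crizotinib 8 h. The difference between the times was itself called in each. Over all genes tested, the same held for 55 of the 1599 called higher at 24 h and 59 of the 1605 called lower. The 8 h comparison called 4.45% of genes higher and 5.34% lower, and both comparisons share the control arrays. Higher at 24 h than at 8 h were SUGCT (2.98), ACTA2 (2.88), IL1B (2.65), SESN1 (2.57), IL1A (2.15), CTSH (1.44) and PFKFB4 (1.08), on the log2 scale. Lower at 24 h were SPC25 (-1.85), MKI67 (-1.77), KIF23 (-1.63), CDC25C (-1.31), CRY1 (-0.82) and BCL2 (-0.82).

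IL1B, an inflammatory cytokine, read 353 and 363 at crizotinib 24 h, 59.1, 53.3 and 59.5 at crizotinib 8 h and 117 and 126 in control. The 8 h arrays lay below control and the 24 h arrays above it. IL1A, its partner cytokine, read 1163 and 1113 at crizotinib 24 h, 271, 271 and 227 at crizotinib 8 h and 627 and 526 in control, in the same order. MKI67 had the reverse order, with 54.0 and 54.8 at crizotinib 24 h, 189, 206 and 162 at crizotinib 8 h and 109 and 125 in control. CDC25C, a phosphatase of mitotic entry, read 204 and 217 at crizotinib 24 h, 489, 550.4 and 526 at crizotinib 8 h and 374 and 351 in control. BCL2, an inhibitor of cell death, lost its call against control without any 1 of the 4 arrays, with changes from -0.41 to -0.28, and its other probe gave -0.018. CRY1, a clock repressor, lost its call without crizotinib 24 h replicate 2 (-0.41), and PFKFB4, a glycolytic regulator, under median scaling (0.27).

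Probes without a single gene symbol stand outside the gene comparison. Of 3210 such probes tested, limma called 589 (18.3%), 316 higher and 273 lower, against 25.8% of all kept probes. Their changes reached 2.77 and -1.99.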

How the results depend on the processing

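Under the scanner columns' described names, limma called 0 genes in each comparison: 1522 passed an unadjusted p of 0.05 for crizotinib 24 h against control (lowest adjusted p 0.0505), 662 against crizotinib 8 h (0.6304) and 1332 against ciclopirox 24 h (0.2668). Of 335 named genes called, 178 turned direction there, none of them called. In every other setting the genes called against control numbered from 2033 to 3863, against 3204 as reported. Leaving out 1 array gave 2033 to 2304 calls against control, 2558 to 3744 against crizotinib 8 h (3988 as reported) and 1379 to 1944 against ciclopirox 24 h (2494 as reported). The lowest were without crizotinib 24 h replicate 1 in each. Against ciclopirox 24 h, the arrays of the 2 groups alone gave 1463 calls, no filter 1662, and the set without ciclopirox 24 h replicate 2 gave 1511. With the replicate number as a block 3005 genes were called against control, and same-numbered arrays did not deviate together (r = -0.076). Of the 335 named genes, 198 kept their calls in all 15 other settings, a further 18 kept them wherever they were tested (31 were not tested among probes detected on all 12 arrays), and 102 lost them without at least 1 single array. ANGPTL4 turned to 0.27 among probes detected on all 12 arrays, SDHC to -0.08425 over the mean of its probes, and OSBP to -0.004579 under median scaling, and the cause was not tested. Median scaling left 29.0% of calls higher against ciclopirox 24 h and scaling on detected probes 55.3%, against 51.1% as reported. Of 840 called genes with another probe, 103 had one of opposite sign. Of called genes, 105 rose from and 65 fell to below background and carry bounds, and 8 lay below it in both groups.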
